A study of Mus musculus with 175 samples.

Results

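The cells described here were 40 single megakaryocyte-erythroid progenitors (MEPs) of the E14.5 mouse fetal liver that carried the human CD4 reporter of the Runx1 P2 promoter on their surface (P2+) and gave at least 1 read of Klf1. They were drawn from 48 P2+ MEPs among 175 single cells in all. The cells were chosen by their Klf1 reads and split by their Fli1 reads in these same libraries: 28 of the 40 cells held at least 1 Fli1 read (Fli1-positive cells) and 12 held none (Fli1-zero cells). Klf1 and Fli1 are therefore given below only as a description of that choice and are left out of every result. Of the other 8 P2+ MEPs, 7 had no Klf1 read, and 1 was left out because 27.9% of its reads were unmapped, above the limit of 25%, although it held 127 Klf1 and 39 Fli1 reads.

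Each cell was sequenced by itself, by a modified Smart-Seq2 protocol that reads along whole transcripts and attaches no molecular identifiers. All cells were E14.5 (14.5 days post fertilization) hematopoietic progenitors from a cross of C57BL/6 with ICR mice, and all came from the livers of 2 litters combined into 1 pool. All shared 1 genotype, which the sample labels write as Runx1 P2-GFP::P2-hCD4/+ and the study's methods as P1-GFP::P2-hCD4/+, a pair of knocked-in reporters of the Runx1 promoters. The gate took lineage-negative, Sca1-negative, cKit-positive MEPs low for CD16/32 and negative for CD34 and for CD41, and kept those positive for CD150, so that surface integrin alpha IIb (CD41) was absent and SLAMF1 (CD150) present by selection in both sets. Since the 28 and the 12 cells share 1 pool of animals, each set is 1 sample, cells are not replicates, and no difference between them was tested. The intervals given are exact 95% intervals that cover counting error only, because copies made by PCR are not independent molecules.

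KLF1 is a zinc finger factor that binds CACCC boxes and switches on globin, heme synthesis and red cell membrane genes, and FLI1 is an ETS family factor that binds sites with a GGAA core in the genes of platelet receptors and granules. Both work with GATA1, which binds GATA sites in erythroid and megakaryocytic genes alike, and KLF1 and FLI1 are known to oppose each other where the erythroid and megakaryocytic paths part. A progenitor that transcribes both factors is therefore a common picture of a cell before that choice, and the comparison asks what else differs between such cells and those in which only the erythroid factor was read.

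The promoters of 3 platelet genes that were read more in Fli1-positive cells and of 2 erythroid genes that were read more in Fli1-zero cells are shown, since the members of these groups lay on opposite sides of the comparison. Each run is the 250 bases before the RefSeq transcription start (GRCm38.p6), 5′ to 3′ on the gene's own strand, and capitals mark matches on either strand. The motif searched for GATA factors was AGATAA. For ETS factors it was the GGAAGT hexamer, and for KLF factors the letters CACCC. No 2 matches overlapped in the windows shown.
Plek (ENSMUSG00000020120.15), chr11:17008719-17008968, minus strand: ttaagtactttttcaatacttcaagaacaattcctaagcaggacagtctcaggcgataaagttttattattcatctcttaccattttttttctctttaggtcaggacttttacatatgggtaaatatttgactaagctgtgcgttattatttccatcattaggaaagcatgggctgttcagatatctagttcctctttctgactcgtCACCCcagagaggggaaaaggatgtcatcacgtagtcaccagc
Itga2b (ENSMUSG00000034664.13), chr11:102469884-102470133, minus strand: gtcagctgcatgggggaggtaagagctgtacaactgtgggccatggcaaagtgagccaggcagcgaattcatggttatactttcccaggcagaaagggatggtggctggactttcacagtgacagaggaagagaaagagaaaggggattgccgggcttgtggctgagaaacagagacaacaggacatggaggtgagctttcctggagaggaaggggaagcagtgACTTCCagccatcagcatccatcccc
Gp9 (ENSMUSG00000030054.4), chr6:87777820-87778069, plus strand: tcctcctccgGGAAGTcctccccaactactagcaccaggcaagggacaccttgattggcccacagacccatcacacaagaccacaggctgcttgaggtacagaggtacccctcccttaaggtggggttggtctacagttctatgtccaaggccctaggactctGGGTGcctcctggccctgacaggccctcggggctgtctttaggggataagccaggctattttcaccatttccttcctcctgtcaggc
Ermap (ENSMUSG00000028644.16), chr4:119189996-119190245, minus strand: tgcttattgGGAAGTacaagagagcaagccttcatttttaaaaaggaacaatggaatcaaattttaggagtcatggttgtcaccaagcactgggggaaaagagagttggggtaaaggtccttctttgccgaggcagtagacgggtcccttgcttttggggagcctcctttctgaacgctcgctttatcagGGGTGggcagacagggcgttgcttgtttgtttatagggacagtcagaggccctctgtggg
Pklr (ENSMUSG00000041237.12), chr3:89135892-89136141, plus strand: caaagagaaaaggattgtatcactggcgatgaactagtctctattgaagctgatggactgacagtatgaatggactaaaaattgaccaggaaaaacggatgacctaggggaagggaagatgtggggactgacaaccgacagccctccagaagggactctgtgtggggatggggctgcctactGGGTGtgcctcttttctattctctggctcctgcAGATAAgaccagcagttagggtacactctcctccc
The windows of Itga2b and Gp9 held a GGAAGT match, as did that of Ermap, and that of Plek held CACCC alone. The Pklr window held AGATAA and CACCC, and those of Gp9 and Ermap held CACCC as well. RefSeq gives Pklr a second start, and the 250 bases before it (chr3:89136373-89136622) held none of the motifs. Over all 32851 promoters of the table, 9.99% held AGATAA, 19.7% held GGAAGT and 52.01% held CACCC. Among promoters of the genes at least 2-fold higher in Fli1-positive cells these shares were 5.45%, 24.2% and 58.9%, and among those at least 2-fold lower they were 6.77%, 22.9% and 58.6%. The promoters of all genes compared held them at 5.60%, 24.7% and 56.01%, so that the 3 shares lay within a few percentage points of each other in every group of compared genes. A match of letters is a description of the sequence and not a binding site.

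The Fli1 reads of the Fli1-positive cells ran from 1 upward with a median of 51. Just inside the threshold were 3 cells with 1 read, 1 with 6 and 1 with 8, and just outside it were the 12 cells at 0. At the depth of a Fli1-zero cell a count of 0 allows up to 3 reads, or 2.43 to 9.002 CPM (reads per 1000000 reads on mouse genes), and 3 of the 28 Fli1-positive cells lay under the highest of these limits. The lowest Klf1 counts among the 40 cells were 6, 25 and 25 reads. The median Klf1 level was 201 CPM in Fli1-positive cells (9.81 to 846) and 373.3 CPM in Fli1-zero cells (27.2 to 615), values that belong to the choice of the cells.

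Fli1-zero cells were the more deeply sequenced of the sets. Reads on mouse genes had a median of 837520 (333254 to 1234330) in Fli1-zero and of 617932 (305186 to 1042850) in Fli1-positive cells. At an equal 100000 reads per cell, the median number of genes with a read was 5372.5 and 5515, the medians of mitochondrial reads were 4.54% and 4.58%, and those of spike-in reads 2.45% and 2.34%. The sexes of the embryos were not balanced between the sets: 16 of 28 Fli1-positive and 4 of 12 Fli1-zero cells had reads of Xist and none of 4 Y chromosome genes, 10 and 7 had Y chromosome reads alone, 1 Fli1-zero cell had neither and 2 Fli1-positive cells held both. The part of sex in the differences was not tested, and values among Xist-only cells (16 and 4 cells) or Y-only cells (10 and 7 cells) are given beside some of the genes and lists whose direction they turn.

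Erythroid markers were read in nearly every cell of both sets, and megakaryocytic markers in fewer. Of 7 erythroid markers besides Klf1 (Gata1, Epor, Rhag, Ermap, Car1, Cited4 and Blvrb), at least 3 were read in 26 of 28 Fli1-positive, 12 of 12 Fli1-zero and 56 of 56 P2- MEPs, the reporter-negative MEPs of the same pool. Of 7 megakaryocytic markers besides Fli1 (among them Gp9, Gp1bb, Itga2b, Plek, Vwf and Pf4), at least 3 were read in 22 of 28 Fli1-positive cells, 4 of 12 Fli1-zero cells and 2 of 56 P2- MEPs. Thinned to 100000 reads per cell, these counts were 21, 3 and 1. Both sides at once, with at least 3 markers of each, were read in 20 of 28 Fli1-positive and 4 of 12 Fli1-zero cells. They were also read in 5 of the 7 P2+ MEPs without a Klf1 read, so that this trait was not particular to Fli1-positive cells. No megakaryocytic marker was read in 2 Fli1-zero cells and 0 Fli1-positive cells. Genes of hepatocytes, macrophages and lymphoid cells were read in few cells. The hepatocyte gene Alb and the macrophage gene Adgre1 had 0 reads in both sets, but the fetal hepatocyte gene Afp had 185 reads in 4 Fli1-positive cells and 2 in 1 Fli1-zero cell, and the macrophage gene Cd68 was read in 3 cells of each set (highest 65.2 and 104 CPM). The 11 lymphoid genes had 0 in the Fli1-zero set and 2 of them had reads in the Fli1-positive set. Summed per cell, the 10 hepatocyte genes reached at most 139 and 15.97 CPM and the 10 macrophage genes 65.2 and 120.03 CPM in Fli1-positive and Fli1-zero cells. The 9 endothelial genes were read in both sets, with a summed level of 0 to 267.3 CPM (median 37.9) in Fli1-positive and 0 to 187 CPM (median 47.8) in Fli1-zero cells, while their defining members Cdh5 and Kdr had 2 reads and 1 read in all 40 cells.

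For the comparison of genes, reads were summed over the cells of a set and divided by the set's reads on mouse genes, and the log2 ratio of Fli1-positive over Fli1-zero cells was taken for 9623 genes with at least 10 reads in all that were read in 25% or more of the cells of whichever set was higher. By this filter a gene can enter through 1 set alone, so counts over the genes that passed are a description. In all, 1181 genes (12.3%) were at least 2-fold higher and 828 (8.6%) at least 2-fold lower in Fli1-positive cells, with a median log2 ratio of 0.01. Without the highest cell of each gene, 70.5% of the higher and 40.1% of the lower genes were still past 2-fold. In 0 of the 9623 genes did the cells of the sets not overlap, in either direction, and the Fli1-positive cell was the higher in over 80% of all pairs of 1 cell from each set for 9 genes and in under 20% for 7.

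Platelet genes were read more in Fli1-positive cells as a group, from surface receptors to signalling genes. Of 35 genes for platelet receptors, granule proteins and their signalling, 28 had a read and 20 were compared, of which 9 were at least 2-fold higher and 0 lower (against 12.3% and 8.6% of all genes) and all 20 lay above 0, with a median log2 ratio of 0.82. Against the P2- MEPs, 19 of the 20 were at least 2-fold higher in Fli1-positive cells and 12 of the 20 in Fli1-zero cells, shares that were 9.45% and 10.9% over all genes compared. The median ratio between the sets stayed between 0.72 and 1.27 under all 11 alternatives tried. Per cell, the summed level of the 35 genes ran from 668 over a median of 1984 to 9027 CPM in Fli1-positive cells and from 653 over 1202 to 2435 CPM in Fli1-zero cells. The ranges overlapped over most of the Fli1-zero cells, and P2- MEPs lay lower, at 275.5 to 1237 CPM with a median of 568.2. The 7 P2+ MEPs without a Klf1 read had the highest median, at 2597 CPM (1929 to 6189).

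Plek codes for pleckstrin, a protein kinase C substrate of platelets. It was read in 21 of 28 Fli1-positive cells, with a lowest value of 0, a median of 79.98 and a highest of 563 CPM, and in 2 of 12 Fli1-zero cells, at 8.70 and 124 CPM. The pooled levels were 109.7 and 15.6 CPM, a log2 ratio of 2.81 (2.57 to 3.06). A Fli1-positive cell was the higher in 82.1% of pairs, and the level in P2- MEPs was 2.55 CPM, so that the Fli1-zero cells were closer to the P2- MEPs than to the Fli1-positive cells. In the P2+ MEPs without a Klf1 read it was 191 CPM. After thinning, 71.4% of Fli1-positive cells (51.3 to 86.8%) and 16.7% of Fli1-zero cells (2.09 to 48.4%) held a Plek read.

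Receptor genes of the platelet surface followed in the same direction. Gp9, a subunit of the von Willebrand factor receptor, was read in 17 of 28 Fli1-positive cells (median 33.3, highest 552 CPM) and 4 of 12 Fli1-zero cells (highest 80.2 CPM). Its pooled level was 90.4 against 19.7 CPM, a log2 ratio of 2.20 (1.98 to 2.42), and it had 0 reads in 56 P2- MEPs, which allows a share of cells with a read of up to 6.38% (exact binomial) and says nothing of cells that express it under the depth read. Some Fli1-zero cells thus held a platelet receptor transcript that was not read in any P2- MEP. The other subunits of that receptor were nearer to each other: Gp1ba was at 50.1 and 23.3 CPM (log2 1.11, or 0.80 without its highest cell), Gp5 at 77.5 and 60.5 CPM (log2 0.36), and Gp1bb at 28.9 and 19.5 CPM (log2 0.57). Most exon bases of Gp1bb (92.9%) overlap other annotated genes, so that its count without strand is uncertain.

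Itga2b codes for the CD41 chain of the fibrinogen receptor, whose protein the gate excluded. Its RNA was read in 23 of 28 Fli1-positive cells (median 92.2, highest 512 CPM) and in 6 of 12 Fli1-zero cells (median 2.18, highest 299.2 CPM). The pooled levels were 131 and 48.8 CPM, a log2 ratio of 1.43 (1.28 to 1.57), and 33.6 CPM in P2- MEPs. Itga2b transcripts were thus read in cells without the surface protein in both sets, and the highest Fli1-zero cell lay within the range of the Fli1-positive cells. Slamf1, which codes for the CD150 of the gate, was at 102 and 60.5 CPM (log2 0.76, 0.62 to 0.89) in 18 and 7 cells, short of 2-fold. It was far lower in P2- MEPs, at 8.23 CPM, so that both sets stood above them. F2r, a thrombin receptor, was read in every Fli1-positive cell and in 8 of 12 Fli1-zero cells, at 168 and 98.8 CPM (log2 0.77). Treml1, a receptor of platelet granules, was at 63.7 and 39.9 CPM (log2 0.67) and Cd9, a tetraspanin, at 59.7 and 50.1 CPM (log2 0.25).

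Of the other genes past 2-fold, Gng11, a G protein gamma subunit, was read in 11 and 2 cells (log2 1.55, or 0.76 with equal weight for every cell) and was lower in Fli1-positive cells among Xist-only cells (log2 -0.84). Mmrn1, which binds factor V in platelet granules, was read in 8 and 1 cells (log2 1.85) and came to -0.12 when the cells were thinned before the split. Gucy1a3, a subunit of soluble guanylate cyclase, was read in 11 and 1 cells, at 25.4 and 0.515 CPM. F2rl2, a further thrombin receptor, had 616 reads in 9 Fli1-positive cells and 1 read in 1 Fli1-zero cell. Rap1b, a small GTPase of integrin activation, was at 407 and 189 CPM (log2 1.11, or 0.88 without its highest cell), although the median cell was the lower in the Fli1-positive set (164 against 189 CPM), so that a few cells carried the pooled ratio. Fermt3, the kindlin of blood cells, differed little at 572 and 521 CPM (log2 0.14). Genes of the mature platelet were sparse: Vwf was read in 4 and 1 cells, Thbs1 in 4 and 0, and Pf4 in 0 Fli1-positive cells and 1 Fli1-zero cell, at 58.8 CPM there. None of these 3 genes was read in 25% of the cells of a set.

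**Figure D1:**
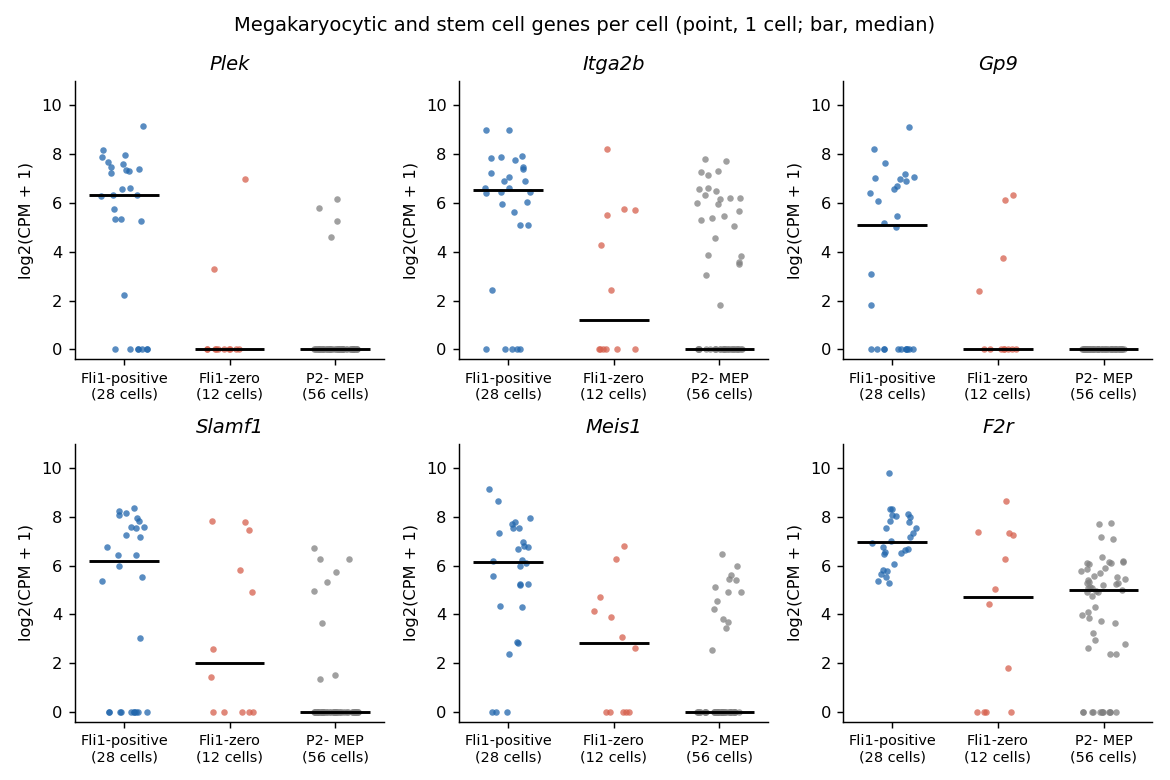
Levels of Plek, Itga2b, Gp9, Slamf1, Meis1 and F2r in single cells, as log2(CPM + 1), for the 28 Fli1-positive, the 12 Fli1-zero and 56 P2- MEPs, with 1 point per cell and a bar at the median. Fli1-positive cells hold most of the high points of all 6 genes, the sets overlap in each gene, and Plek is above 0 in 21 of 28 and 2 of 12 cells.

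Of 16 regulators of megakaryocytes, 4 of which are also on the list of erythroid regulators, 13 were compared, 4 were at least 2-fold higher and 0 lower in Fli1-positive cells (12.3% and 8.6% of all genes compared), 10 of 13 lay above 0, and the median log2 ratio was 0.35. Meis1, a homeobox gene of stem cells and megakaryocytes, was read in 25 of 28 (median 70.4, highest 568.3 CPM) and 7 of 12 cells (median 6.28, highest 112 CPM). Its pooled levels were 113 and 25.1 CPM, a log2 ratio of 2.17 (1.97 to 2.36). It was scarce in P2- MEPs, at 8.005 CPM, so that the Fli1-zero level lay between those of the other sets. That order held for only 12.5% of all genes at least 2-fold higher in Fli1-positive cells.

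Also past 2-fold were Etv6, an ETS repressor, at 89.5 and 24.5 CPM (log2 1.87, 1.67 to 2.07, or 0.90 among Xist-only cells), and Mafg, the small partner of NF-E2, at 71.7 and 19.2 CPM (log2 1.90, 1.68 to 2.13). Mef2c, a factor of platelet genes, was at 214.9 and 129 CPM (log2 0.73). Runx1, whose P2 reporter chose these cells, was at 62.8 and 44.5 CPM (log2 0.50) in 25 of 28 and 11 of 12 cells. Its partner gene Cbfb was at 61.8 and 48.4 CPM (log2 0.35, or -0.06 after thinning before the split). Gata2, a GATA factor of early progenitors, was at 192 and 278.2 CPM (log2 -0.53) and in both sets far above the 35.2 CPM of P2- MEPs, so that the Fli1-zero cells shared this level with the Fli1-positive ones.

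ETS genes other than Fli1 lay on both sides of 0. Of 14 ETS genes other than Fli1, 10 were compared, 4 were at least 2-fold higher and 1 lower (against 12.3% and 8.6% of all genes), and 5 of 10 lay above 0, with a median log2 ratio of 0.45. Besides Etv6, the higher ones were Elf2 at 59.7 and 21.9 CPM (log2 1.44, or 0.47 after thinning before the split), Elk3 at 28.2 and 11.5 CPM (log2 1.29, or 0.08 among Y-only cells) and Erf, a repressor, at 10.5 and 3.29 CPM (log2 1.67). Ets2 was the lower one, at 20.2 and 47.9 CPM (log2 -1.25, or -0.61 without its highest cell). Spi1, which codes for the myeloid factor PU.1, was at 20.8 and 37.8 CPM (log2 -0.86), and was read in 35.7% (18.6 to 55.9%) and 50% (21.1 to 78.9%) of cells at equal depth, intervals that count cells and not animals. The nearest relatives of Fli1 were close to absent: Erg was read in 2 and 0 cells and Ets1 in 1 and 1.

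Of 28 genes of stem and multipotent cells 18 were compared, of which 5 were at least 2-fold higher and 1 lower (12.3% and 8.6% over all genes) and 15 above 0, with a median log2 ratio of 0.53 that was 0.14 without the highest cell of each gene and -0.020 among Y-only cells. Angpt1, the TIE2 ligand made by hematopoietic progenitors, was read in 17 of 28 (median 11.9, highest 184 CPM) and 2 of 12 cells (highest 29.1 CPM), at 33.2 and 2.78 CPM pooled (log2 3.58, 3.02 to 4.19). Ptprc, the CD45 phosphatase, was at 26.3 and 8.03 CPM in 11 and 2 cells (log2 1.71). These genes were read in few Fli1-zero cells and in few P2- MEPs (0.948 and 2.61 CPM there). Sox4 was at 16.7 and 3.91 CPM (log2 2.09, or 0.95 without its highest cell) but at -2.65 among Y-only cells, and 54.6% of its exon bases overlap Gm26735. Mycn had 202 reads in 7 Fli1-positive cells and 1 read in 1 Fli1-zero cell. Kit, the stem cell factor receptor of the gate, was at 244.5 and 322.1 CPM (log2 -0.40), Muc13 at 212.2 and 117 CPM (log2 0.86), Cd48 at 161 and 103 CPM (log2 0.64) and Adgrg1 at 319.8 and 276.1 CPM (log2 0.21). Cd34, whose protein the gate excluded, was read in 4 of 28 and 1 of 12 cells, and the fetal program genes Lin28b and Hmga2 were at 62.4 and 37.3 CPM and at 68.4 and 64.1 CPM. Among Xist-only cells Lin28b and Adgrg1 were on the other side, at log2 ratios of -0.43 and -0.11, and Hmga2 was at -1.22 among Y-only cells.

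**Figure D2:**
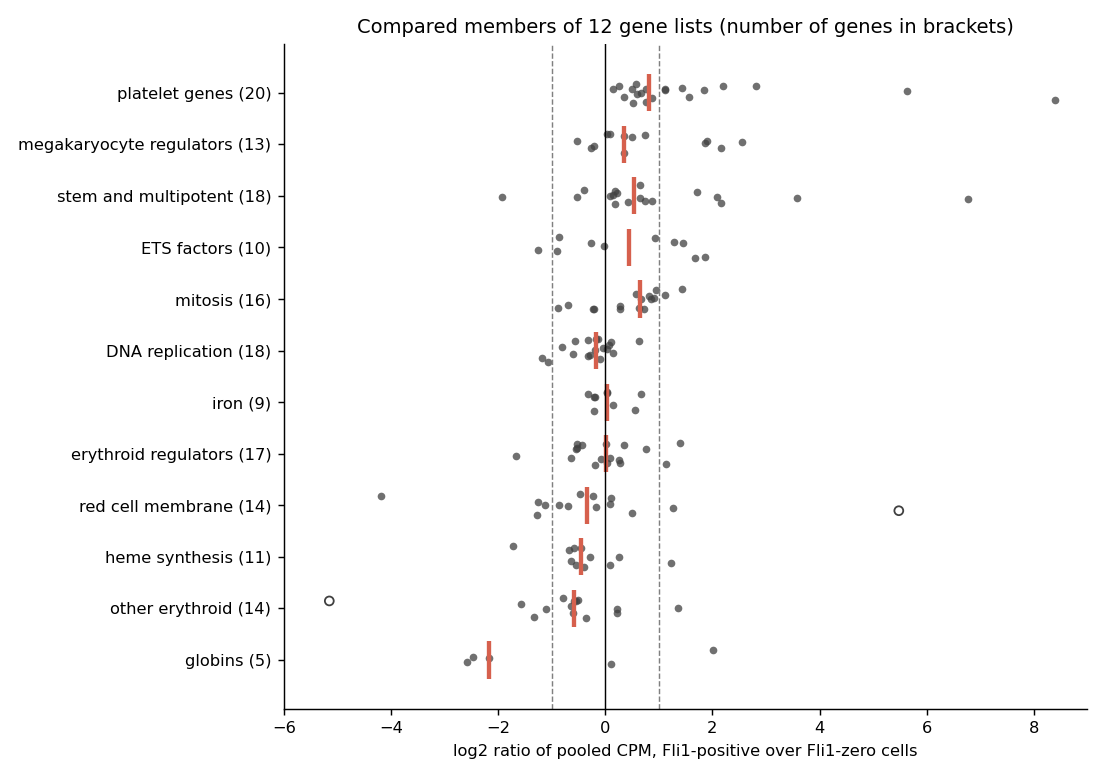
Log2 ratio of pooled CPM (Fli1-positive over Fli1-zero cells, x axis) of each compared member of 12 gene lists, with 1 point per gene, a red bar at the median of the list, open circles for genes at 0 reads in 1 set (a bound at 3 reads) and dashed lines at 2-fold. All 20 platelet genes lie right of 0 (median 0.82), and the medians of heme synthesis (-0.45), red cell membrane (-0.35) and other erythroid genes (-0.59) lie left of it.

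The erythroid regulators had a median log2 ratio near 0. Of 17 erythroid regulators, all were compared, 2 were at least 2-fold higher and 1 lower (12.3% and 8.6% of all genes), 9 of 17 lay above 0, and the median log2 ratio was 0.01, equal to that of all genes. Gata1 was read in all 40 cells, at 202 CPM in Fli1-positive cells (25.99 to 572, median 170.1) and 313.9 CPM in Fli1-zero cells (31.5 to 626, median 208.9), a log2 ratio of -0.64 with overlapping cells. Tal1 and Lmo2, members of the GATA1 complex, were at 159.8 and 156 CPM and at 767 and 634 CPM, and Zfpm1, which codes for the GATA1 partner FOG1, at 225.3 and 211.2 CPM. Gfi1b, a repressor of both lineages, was at 150.3 and 204 CPM (log2 -0.44), Nfe2 at 292.5 and 231.1 CPM (log2 0.34) and Myb at 266.03 and 303.02 CPM (log2 -0.19). Klf3, a repressor that KLF1 is known to activate, was the lower gene, at 20.5 and 65.5 CPM (log2 -1.67, -1.86 to -1.48) in 10 of 28 and 8 of 12 cells, and was at 0.60 among Xist-only cells. Gata1, Gfi1b, Gata2 and Myb were on the other side among Xist-only cells, at log2 ratios of 0.59, 1.18, 0.42 and 0.12, and so was Lmo2, at -0.12. Foxo3, a factor of stress defence in erythroid cells, was at 87.6 and 39.7 CPM (log2 1.14, or 0.73 after thinning before the split). E2f2, a cell cycle factor of late erythroid cells, was at 33.3 and 12.7 CPM (log2 1.40), but at -0.22 when the cells were thinned before the split.

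Heme synthesis genes were mostly lower in Fli1-positive cells, and most of them by less than 2-fold. Of 12 genes 11 were compared, with 1 at least 2-fold higher and 1 lower (12.3% and 8.6% of all genes), 3 above 0 and a median log2 ratio of -0.45, which stayed between -0.65 and -0.20 under the alternatives. The summed level ran from 386 over a median of 1361 to 3184 CPM in Fli1-positive cells and from 1156 over 1859 to 3738 CPM in Fli1-zero cells. In P2- MEPs it ran from 1314 to 4111 CPM with a median of 2529, so that the medians of the 3 sets lay in the order Fli1-positive, Fli1-zero, P2- MEP. Alad, the second enzyme of the pathway, was at 461 and 741 CPM (log2 -0.69), Urod at 141 and 193 CPM (log2 -0.45) and Fech, the last step, at 73.9 and 110.3 CPM (log2 -0.58, or 0.10 among Y-only cells). Cpox, the coproporphyrinogen oxidase, was read in 25 of 28 cells (median 188, highest 538 CPM) and in all 12 Fli1-zero cells (58.7 to 609, median 324.3 CPM), with 176 and 276.3 CPM pooled (log2 -0.65, -0.72 to -0.57) and 513 CPM in P2- MEPs. Past 2-fold were Uros at 12.1 and 39.8 CPM (log2 -1.72, or -0.98 without its highest cell), read in 9 and 5 cells, and Hebp1, a heme binding protein, in the other direction at 20.8 and 8.85 CPM (log2 1.23, or 0.68 among Y-only cells). Alas2, the erythroid enzyme of the first step, was read in 2 and 2 cells and fell short of the filter.

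Red cell membrane genes lay on both sides of 0. Of 20 genes 14 were compared, with 4 at least 2-fold lower and 2 higher (8.6% and 12.3% of all genes), 5 above 0 and a median log2 ratio of -0.35, which was 0.32 among Xist-only cells. Tspo2, a translocator protein of erythroid cells, was read in 5 of 28 cells (highest 91.7 CPM) and 6 of 12 cells (median 7.28, highest 216.3 CPM). Its pooled levels were 3.92 and 71.3 CPM, a log2 ratio of -4.19 (-4.56 to -3.83), with 81.3 CPM in P2- MEPs, so that the Fli1-zero level was near that of the P2- MEPs. Ermap, the Scianna blood group protein, was read in 13 of 28 (highest 308.5 CPM) and 8 of 12 cells (median 188, highest 489 CPM), at 79.6, 193 and 313.01 CPM in Fli1-positive, Fli1-zero and P2- cells (log2 -1.28, or -0.98 without its highest cell between the first 2). Ank1, the ankyrin of the membrane skeleton, was at 14.5 and 34.5 CPM (log2 -1.25, or -0.90 without its highest cell), and the water channel Aqp1 at 19.3 and 41.99 CPM (log2 -1.12, or -0.35 without its highest cell). Add2, an adducin, was higher at 37.9 and 15.9 CPM (log2 1.26, or 0.82 without its highest cell), and Tmod1, a tropomodulin, had reads in 10 Fli1-positive cells (13.8 CPM pooled) and 0 in Fli1-zero cells, a log2 ratio of at least 5.48 against a floor of 3 reads over the set. Of the exon bases of Tmod1, 32.6% overlap Tstd2. Kel and Rhag, blood group genes, were at 35.8 and 65.2 CPM (log2 -0.86) and at 20.04 and 32.5 CPM (log2 -0.70). Kel was at 0.55 among Xist-only cells, and Rhag at 0.08 without its highest cell. Of the 4 genes counted as lower, Tspo2 alone was past 2-fold without its highest cell.

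Of the erythroid lists, other genes of the erythroid program gave the lowest median besides the globins. Of 17 genes 14 were compared, with 4 at least 2-fold lower and 1 higher (against 8.6% and 12.3% of all genes), 3 above 0 and a median log2 ratio of -0.59, negative under every alternative (-0.75 to -0.20). Their summed level ran from 740 over a median of 1995 to 6140 CPM in Fli1-positive cells and from 1325 over 2922 to 4773 CPM in Fli1-zero cells, against a median of 4330 CPM in P2- MEPs. Pklr, the pyruvate kinase of red cells, was read in 5 of 28 cells (highest 107 CPM) and 8 of 12 cells (median 12.6, highest 158 CPM), at 11.6, 25.01 and 98.8 CPM in Fli1-positive, Fli1-zero and P2- cells (log2 -1.10, or -0.72 without its highest cell between the first 2). At equal depth that was 14.3% (4.03 to 32.7%), 66.7% (34.9 to 90.1%) and 89.3% (78.1 to 96.0%) of the cells. The share of cells with a Pklr read was thus nearer to that of the P2- MEPs in the Fli1-zero set, although 21.97% of the exon bases of Pklr overlap Hcn3. Atp1b2, a sodium pump subunit, was at 13.8 and 34.8 CPM (log2 -1.33, or -0.78 without its highest cell) but at 0.94 among Xist-only cells, and Car1, a carbonic anhydrase, was at 175 and 522 CPM (log2 -1.58, or -0.53 without its highest cell) but at 1.99 among Xist-only cells, with 1 Fli1-zero cell at 2372 CPM. Atp7b, a copper transporter, had 0 reads in the Fli1-positive set and 58 reads in 3 Fli1-zero cells. Epor, the erythropoietin receptor, was read in 21 of 28 and all 12 cells, at 80.7 and 115 CPM (log2 -0.51). Blvrb was at 168 and 244.7 CPM (log2 -0.54, or 0.72 among Xist-only cells), the metallothionein Mt1 at 536 and 799 CPM (log2 -0.58) and the peroxiredoxin Prdx2 at 500.4 and 646 CPM (log2 -0.37). Cited4 and Car2 lay on the other side of 0, at 208.9 and 179 CPM (Cited4 was at -0.23 among Xist-only cells) and at 332.2 and 286.9 CPM.

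Of 10 iron genes 9 were compared, with 0 past 2-fold in either direction (12.3% and 8.6% of all genes were, so few would be in a list this short) and a median log2 ratio of 0.03. Tfrc, the transferrin receptor, was at 103 and 101 CPM in the sets and at 259.9 CPM in P2- MEPs, and Tfr2 at 55.7, 54.7 and 113 CPM, so that both sets lay under the P2- MEPs, although among Xist-only cells the log2 ratios were -1.16 for Tfrc and -0.80 for Tfr2. Fth1, the ferritin heavy chain, was at 1093 and 984 CPM. Globin reads came from few cells: Hbb-bs, the most abundant, was read in 13 of 28 and 5 of 12 cells, at 128 and 119 CPM with highest cells of 1393 and 898 CPM. The median log2 ratio of -2.16 over 5 compared globin genes rested on genes such as Hba-a1, with 16 and 39 reads (log2 -2.16, or -0.90 without its highest cell), and globin copies of near-identical sequence share reads, so that their values are uncertain.

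**Figure D3:**
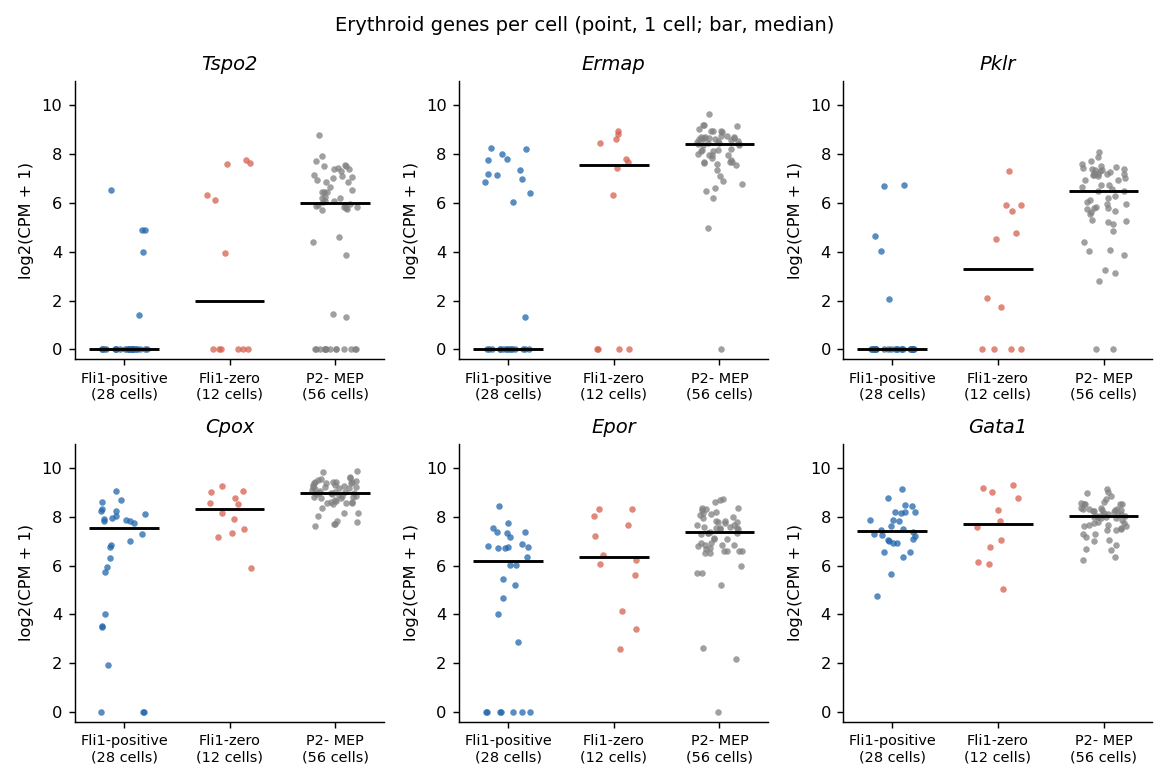
Levels of Tspo2, Ermap, Pklr, Cpox, Epor and Gata1 in single cells, as log2(CPM + 1), for the 28 Fli1-positive, the 12 Fli1-zero and 56 P2- MEPs, with 1 point per cell and a bar at the median. Gata1 is above 0 in every cell of the 3 sets, while Pklr is above 0 in 5 of 28 Fli1-positive and 8 of 12 Fli1-zero cells.

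Most mitosis genes lay above 0, few of them past 2-fold, and DNA replication genes were close to even. Of 16 mitosis genes, all compared, 2 were at least 2-fold higher (12.3% of all genes were), 0 lower and 12 above 0, with a median log2 ratio of 0.64, which was 1.06 among Y-only cells and -0.02 among Xist-only cells. Kif11, a spindle motor, was at 86.4 and 32.2 CPM (log2 1.42, or 0.21 among Xist-only cells) in 20 and 6 cells, and Aurkb, a kinase of chromosome segregation, at 96.9 and 44.6 CPM (log2 1.12, or 0.99 without its highest cell and -0.21 among Xist-only cells). Ccnb1, cyclin B1, was at 255.4 and 141 CPM (log2 0.86), and Cdc20, an activator of mitotic exit, at 198 and 364.8 CPM (log2 -0.88), opposite to most of the list. Against the P2- MEPs, 5 of the 16 genes were at least 2-fold lower in the Fli1-zero set and 0 in the Fli1-positive set, beside 9.63% and 4.51% of all genes compared. Of 18 DNA replication genes, 2 were at least 2-fold lower (8.6% of all genes were) and 0 higher, with a median log2 ratio of -0.18, which was 0.20 among Xist-only cells. These were Cdc6 at 67.6 and 154 CPM (log2 -1.19, but 0.67 among Xist-only cells) and Cdc45 at 46.2 and 96.7 CPM (log2 -1.06, or -0.79 without its highest cell), both needed to start replication. Rrm1, the large subunit of ribonucleotide reductase, was read in all 40 cells, at 296.2 CPM in the median Fli1-positive cell (40.6 to 639) and 507 CPM in the median Fli1-zero cell (284.3 to 673), and a Fli1-positive cell was the higher in only 14.3% of pairs. Of the D cyclins, Ccnd3 was at 202 and 103 CPM (log2 0.98, 0.88 to 1.08) with the Fli1-positive cell higher in 79.8% of pairs, Ccnd2 at 270.8 and 203 CPM (log2 0.42, or -0.12 among Y-only cells), and Ccnd1 was read in 7 cells and 1 cell. Of the exon bases of Ccnd1, 23.4% overlap another gene. The CDK inhibitors Cdkn1b and Cdkn1a were lower in Fli1-positive cells, at 2.74 and 12.1 CPM (log2 -2.15, or 0.084 among Xist-only cells) and at 9.01 and 36.5 CPM (log2 -2.02, or -0.53 without its highest cell, and 2.76 among Xist-only cells). In all, 8 of 10 genes of D cyclins, their kinases and inhibitors were compared, with 1 at least 2-fold higher and 2 lower (12.3% and 8.6% of all genes) and a median of 0.05.

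The counts of the remaining lists stand against the same shares of all genes compared, 12.3% at least 2-fold higher and 8.6% lower. Of 19 cytokine receptor genes 9 were compared, with 0 at least 2-fold higher, 1 lower and 4 above 0 (median -0.40), and the lower one was Ifngr1, a chain of the interferon gamma receptor, at 58.4 and 158 CPM (log2 -1.44, or -0.92 after thinning before the split). Of 22 surface proteins of the sort and the study's antibody screen, 13 were compared, with 2 higher (Itga2b and Ptprc), 2 lower and a median of 0.17. The lower ones were also endothelial genes, Tek, the angiopoietin receptor, at 12.9 and 33.04 CPM (log2 -1.36, or -0.66 without its highest cell) and Eng, the endoglin of the TGF-beta receptor, at 26.5 and 54.3 CPM (log2 -1.03, or -0.40 without its highest cell). Among 23 granulocyte and monocyte genes 4 were compared, and Mpo, the myeloperoxidase, was the 1 past 2-fold at 17.5 and 6.59 CPM (log2 1.41, or 0.51 without its highest cell). The summed level of these 23 genes had a median of 230.9 CPM in Fli1-positive cells (0 to 760) and 124 CPM in Fli1-zero cells (10.2 to 707), so that neither set was free of myeloid transcripts. Of 11 immediate early and stress genes 8 were compared, with Fosb past 2-fold (log2 1.03, or 0.77 without its highest cell), 2 above 0 and a median of -0.04. Cd68 was the 1 macrophage gene compared of 10 (log2 -1.88, or -0.38 without its highest cell), and of 12 mast cell and basophil genes 2 were compared, with 0 past 2-fold and a median of -0.31.

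By a rule that took genes with a read in 50% or more of the cells and 50 CPM or more in the set where they were higher and still past 2-fold without their highest cell, the 12 genes with the highest ratio included Plcg2, Nsdhl, Zfp35, Pacs1, Elovl6, Plcl2, Atp6v1d, Plek, Lims1 and Gid4. Plcg2, the phospholipase of collagen receptor signalling in platelets, was at 66.5 and 3.50 CPM (log2 4.25, 3.76 to 4.78) in 15 of 28 and 3 of 12 cells and at 7.16 CPM in P2- MEPs. Plcl2, a phospholipase C-like protein, was at 61.7 and 8.03 CPM (log2 2.94) and at 9.21 CPM in P2- MEPs. With Plek these were the genes named here at under 10 CPM in P2- MEPs. Nsdhl, an enzyme of cholesterol synthesis on the X chromosome, was at 70.7 and 4.94 CPM (log2 3.84) and Elovl6, a fatty acid elongase, at 59.5 and 7.62 CPM (log2 2.97, or 0.78 after thinning before the split). The level of P2- MEPs was 37.1 and 68.5 CPM for these, so that here the Fli1-zero set was the lowest of the 3. The Fli1-zero set was also the lowest for Zfp35, Pacs1, Atp6v1d, Lims1 and Gid4, with log2 ratios between 2.68 and 3.63 and P2- MEP levels between 36.5 and 54.8 CPM against 6.18 to 12.6 CPM in Fli1-zero cells.

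The 12 genes with the lowest ratio included Tspo2, Tarbp1, Ces2g, Nfkbia, Rabgap1, Dis3l2, Tmem18, Sphk2, Nit1, Cyth2 and Col5a1, of which Tspo2 is an erythroid gene of the lists. Sphk2, a sphingosine kinase, was read in all 12 Fli1-zero cells (2.18 to 155, median 60.0 CPM) and in 11 of 28 Fli1-positive cells (highest 105 CPM), a log2 ratio of -2.03 (-2.24 to -1.82) and the higher value for the Fli1-positive cell in 12.5% of pairs. Of its exon bases 21.9% overlap Dbp and Rpl18, and P2- MEPs were at 26.2 CPM. Nfkbia, the NF-kappa B inhibitor, was at 17.9 and 90.3 CPM (log2 -2.34) in 10 and 9 cells. Among Xist-only cells Nfkbia was at -0.61. The others named had log2 ratios between -2.89 and -1.86, and within 1 sex Rabgap1 (-0.66, Xist-only), Nit1 and Col5a1 (-0.29 and -0.63, Y-only) were short of 2-fold. Of the exon bases of Nit1, 43.3% overlap Dedd. Chosen after its values were seen, Galnt1, which starts O-linked glycans, had a Fli1-positive cell higher in 89.6% of pairs: it was read in all 28 Fli1-positive cells (median 79.8, highest 200.04 CPM) and in 8 of 12 Fli1-zero cells (highest 75.3 CPM), and at 53.6 CPM in P2- MEPs.

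The platelet and erythroid sums were high together in some cells of both sets. Taking the highest platelet sum of any P2- MEP (1237 CPM) and the lowest sum of other erythroid genes in any P2- MEP (1777 CPM) as marks, 10 of 28 Fli1-positive and 5 of 12 Fli1-zero cells lay above both. Above the platelet mark and under the erythroid one were 8 Fli1-positive cells and 1 Fli1-zero cell. Within the P2- MEP range on both sums were 6 Fli1-positive and 6 Fli1-zero cells, and 4 Fli1-positive cells were under both marks. The Fli1-zero set therefore held cells of high platelet sums as well, 6 of 12 in all, beside 18 of 28 in the Fli1-positive set. Of the P2+ MEPs without a Klf1 read, 7 of 7 lay above the platelet mark and 3 above both marks.

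**Figure D4:**
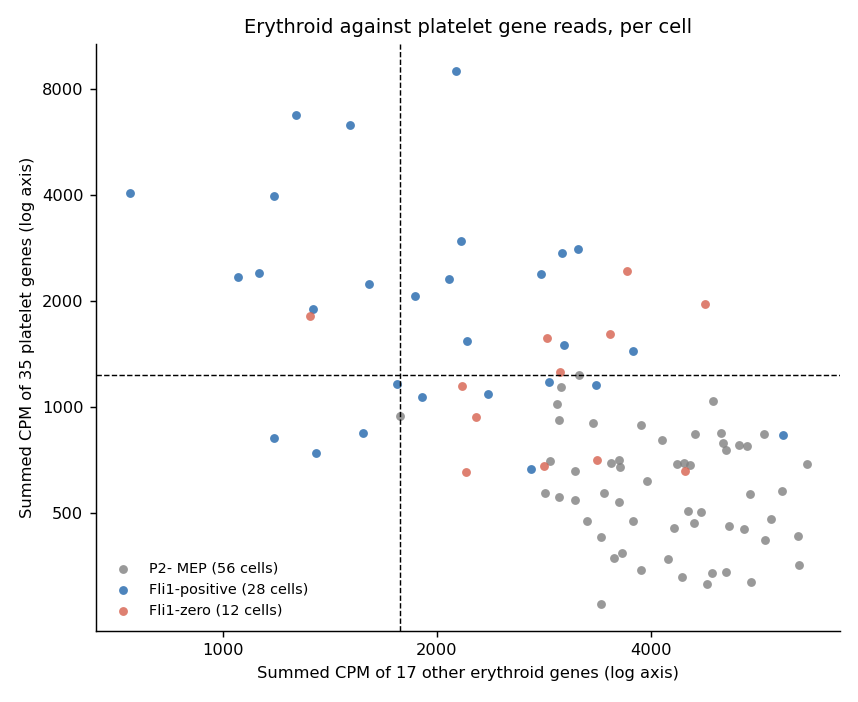
Summed CPM of 17 other erythroid genes (x axis) against summed CPM of 35 platelet genes (y axis), both on log axes, for each Fli1-positive, Fli1-zero and P2- MEP, with dashed lines at the lowest erythroid and the highest platelet sum of the P2- MEPs. Of the cells left of the vertical line 12 are Fli1-positive and 1 is Fli1-zero, and both sets have cells above the horizontal line.

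A principal component analysis of the 500 most variable genes over all cells that passed the filters, without Klf1 and Fli1, gave the Fli1-zero cells a median nearer to that of the P2- MEPs. The first component (15.03% of the variance, divided by its SD across cells, with low values towards P2- MEPs) had a median of -0.68 in Fli1-zero cells (-0.87 to 0.09) and -0.29 in Fli1-positive cells (-1.25 to 0.50). The cells it was built on included common myeloid progenitors (CMPs), which had its highest medians, 0.76 in 27 CMP_low and 1.33 in 42 CMP_high cells. The component thus also ran from MEPs to CMPs and is no scale of erythroid against megakaryocytic reads alone. P2- MEPs had a median of -1.10 (-1.43 to -0.50) and the 7 P2+ MEPs without a Klf1 read one of 0.02 (-0.37 to 0.19). Within the range of the P2- MEPs lay 7 of 12 Fli1-zero and 7 of 28 Fli1-positive cells, which were 4 of 12 and 5 of 28 with all genes. The lowest of all 40 cells was Fli1-positive, and the Fli1-zero cell with most megakaryocytic markers, 5 of 7, was the highest of its set at 0.09. The Fli1-zero median was also the lower of these with all 11858 genes (-0.50 and -0.26) and with other size factors (-0.72 and -0.30). The component is built from the same reads as the gene values above and is no separate measurement.

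**Figure D5:**
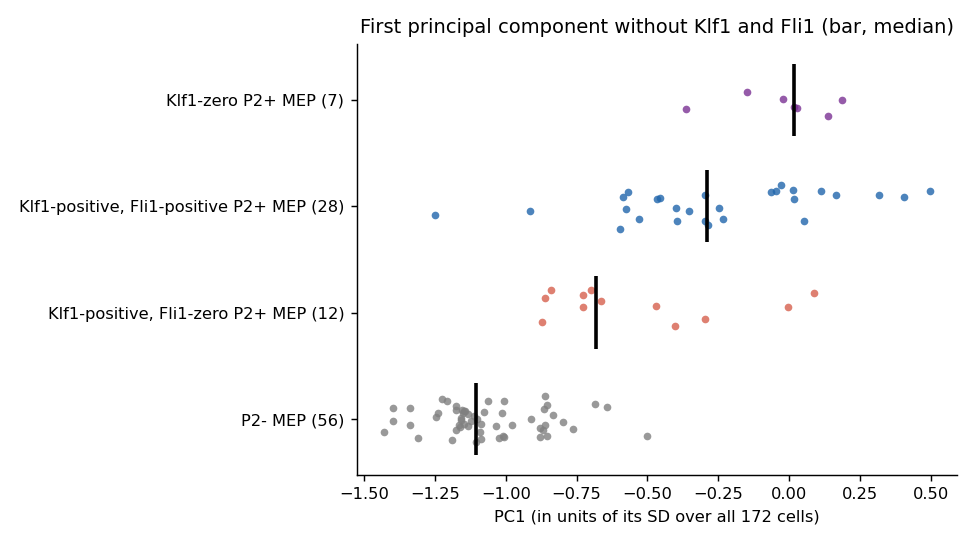
First principal component of log2(CPM + 1) over the 500 most variable genes without Klf1 and Fli1 (x axis, in SD units) for single cells of 4 sets, with 1 point per cell and a bar at the median. The CMPs, which had the highest medians of this component, are not drawn. The medians run from -1.10 in P2- MEPs over -0.68 in Fli1-zero and -0.29 in Fli1-positive cells to 0.02 in P2+ MEPs without a Klf1 read, and neighbouring sets overlap.

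The P2- MEPs, which the choice of the cells did not use, gave a second look at the same split, with 15 cells holding a Fli1 read and 41 holding none. Over the 8890 genes that passed the same filter in both, 49.6% had a positive log2 ratio there. Among the genes at least 2-fold higher in Fli1-positive P2+ MEPs the share was 49.6% (495 of 997 genes), and among those at least 2-fold lower it was 51.03% of 631, so that past 2-fold the genes as a whole did not keep their direction in P2- MEPs. Of the platelet genes 10 of 12 compared there lay above 0, with a median of 0.47, and of the mitosis genes 15 of 16 did, with a median of 0.31. The filter asks for the same share of cells in either set, which is fewer cells out of 15 than out of 41. A gene read in few P2- MEPs therefore passed more easily when it was higher in those with a Fli1 read. Only 12 of the 35 platelet genes passed, so their count above 0 cannot show whether the list kept its direction. All 16 mitosis genes passed. Within the platelet list, Slamf1 was at 3.17, Itga2b stood at 1.29, and Gp9 had 0 reads. Meis1, in contrast, was at -2.29 there. Of the 56 P2- MEPs, Slamf1 was read in 9, Itga2b in 26 and Meis1 in 14, so that few cells carried the ratios of Slamf1 and Meis1. The erythroid lists were mixed, with 5 of 14 other erythroid genes, 3 of 11 heme synthesis genes and 6 of 13 red cell membrane genes above 0, and Tspo2, Ermap and Pklr at 0.14, 0.34 and -0.52.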

How the data were processed

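Single cells were sorted from 1 pool of fetal livers, and libraries were made by a modified Smart-Seq2 protocol with spike-in RNA. The authors trimmed reads with Trimmomatic 0.36, aligned them with STAR 2.4.2a to GRCm38 with the spike-in sequences, and counted them per gene with HTSeq 0.6.1p1 without strand, on GENCODE M12 genes, per the study's methods. The deposited table holds these raw read counts, 1 column per cell. Its 5 tally rows were kept out of all totals, among them ambiguous reads (27.0% of uniquely mapped reads) and reads in no gene (8.11%). The deposited quality table gives mapping values, percent of unmapped reads among them. Cells under 250000 reads, over 25% unmapped or over 15% spike-in reads were left out, as in the study's methods, which removed 3 of 175 cells. All sample columns could be mapped to a sample.

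P2+ MEPs with at least 1 Klf1 read were split by Fli1 reads. Summed reads of each set were scaled to CPM of reads on mouse genes, with exact Poisson intervals for levels, an exact conditional binomial interval for ratios and exact Clopper-Pearson intervals for shares of cells, at 95%. A set at 0 reads was put at 3 reads over the set, which makes the ratio a bound. The same calculation was run on simulated counts, drawn with no spread between cells and no PCR copies. That run checks the arithmetic only and cannot show how well the intervals cover in these data. Each set is 1 sample, so there is no test and no p-value. Named genes were those of 22 lists (Klf1 and Fli1 left out), plus 12 genes at each end of the ranking by ratio under the filter given with them. Values of some list members are not reported here. Named members and lists were chosen with earlier results of these data known. Shares at equal depth were taken after thinning each cell to 100000 reads, at random. Principal components were taken of log2(CPM + 1) over 500 genes of highest variance. Promoters came from RefSeq for GRCm38.p6, and exon overlaps from GENCODE annotation of GRCm38. Alternatives were DESeq2 1.42.0 size factors, equal weights of cells, other thresholds on Klf1, Fli1 and low counts, thinning before the split, leaving out the highest cell of each gene and, added after seeing the data, cells of 1 sex. Python 3.11.15 with numpy 2.4.6, pandas 2.3.3 and scipy 1.17.1, and R 4.3.3 were used.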

Additional observations from a re-analysis of the deposited data

How the results depend on the processing

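No paired analysis was possible because each set of cells is 1 pooled sample and no replicate numbers link the cells. Of all list medians, those of platelet, megakaryocyte regulator, ETS and endothelial genes, heme synthesis, other erythroid genes and globins kept their sign under every alternative that gave a value. The genes at least 2-fold higher, 12.3% of those compared, were 9.67% (773) with thinning before the split (25 against 14 cells), 20.4% (3463) without a filter on low counts and 25.4% (2485) among Xist-only cells. Those at least 2-fold lower, 8.6%, were 3.52% without the highest cell of each gene, 19.1% (3243) without the filter, 16.5% (1617) among Xist-only and 16.5% (1539) among Y-only cells. Scaling by DESeq2 size factors moved the median log2 ratio of all genes from 0.01 to -0.06. List medians moved for iron genes to -0.63 among Xist-only and 0.65 among Y-only cells, for granulocyte and monocyte genes to 1.74 without the filter, for stem cell genes to 0.14 without the highest cell of each gene and to -0.020 among Y-only cells, for DNA replication genes to 0.20 and red cell membrane genes to 0.32 among Xist-only cells, and for mitosis genes to 1.06 among Y-only and -0.02 among Xist-only cells. Ratios past 2-fold changed sign among Xist-only cells for Atp1b2 (0.94), Aurkb (-0.21), Car1 (1.99), Cdc6 (0.67), Cdkn1a (2.76), Cdkn1b (0.084), Gng11 (-0.84) and Klf3 (0.60), among Y-only cells for Cd68 (0.54) and Sox4 (-2.65), and with thinning before the split for E2f2 (-0.22) and Mmrn1 (-0.12). These sets are small (16 against 4 Xist-only and 10 against 7 Y-only cells), and the cause was not tested. Medians of globin and endothelial genes could not be had among Y-only cells or after thinning, with too few genes left. At the depth of a Fli1-zero cell, up to 9.002 CPM of Fli1 could go unread.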
